A study of Saccharomyces cerevisiae with 9 samples.

Results

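The contrast described here set the response of budding yeast to CdSe/ZnS quantum dots against its response to InP/ZnS quantum dots, gene by gene. RNA of Saccharomyces cerevisiae cells labelled as strain S288C was sequenced in 3 libraries exposed to CdSe/ZnS dots at 10 µg/mL, 3 exposed to InP/ZnS dots at 100 µg/mL and 3 that received no treatment. Synthetic medium with glucose was used for all of them, at 30 °C and with shaking (220 rpm). Exposure began at an optical density of 0.3 to 0.6 and lasted 6 h in the treated libraries, and no time is listed for the untreated ones. Quantum dots are light-emitting semiconductor nanocrystals, here with cores of cadmium selenide (CdSe) or indium phosphide (InP), each coated with zinc sulfide (ZnS). The core material and the dose differ together between the exposures and cannot be told apart, and the labels also give the InP/ZnS dose in mg/mL, so its unit is uncertain. No label says whether the libraries of a group came from separate cultures, so the errors below may be technical.

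The authors deposited 1 table per quantum dot, each with 1 pooled FPKM (fragments scaled by gene length and library size) per gene for the treated and the untreated libraries, and no value per library, so the depth behind a value is unknown. Genes were joined by their identifier between the tables. Of 6963 entries in both tables, 6290 had been tested in both, and 5901 of these reached 10 FPKM in at least 1 of the 4 values and were kept. YIG1, with 5.72 FPKM with CdSe/ZnS and 9.37 untreated, against 9.43 with InP/ZnS and 10.0 untreated, lay just inside that floor. YKL222C, with 7.94 FPKM with CdSe/ZnS and 6.83 untreated, against 9.95 with InP/ZnS and 7.91 untreated, lay just outside it. Of the kept genes, 5353 were at or above the floor in all 4 values and 548 in fewer; 6 of these 548 are among the genes called below.

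For each gene the log2 ratio of treated to untreated FPKM was taken in each table and centred on its median over the kept genes, a value of -0.37 with CdSe/ZnS and of 0.06 with InP/ZnS. The difference given throughout is the centred value with CdSe/ZnS minus that with InP/ZnS, on the log2 scale. Its standard error, written after the ± sign, combines the errors implied by the authors' own test statistic in the 2 tables, with a median over genes of 0.343. Because the untreated libraries serve both tables, that error is larger than the true one where the control varies. A q is the adjusted p of a 2-sided normal test of the difference, by the Benjamini-Hochberg method over all 5901 genes, and a gene with q under 0.05 is called higher or lower with CdSe/ZnS.

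Yeast answers many stresses with a common program, in which the factors Msn2 and Msn4 bind the short stress response element of promoters and raise genes for storage sugars, chaperones and antioxidant enzymes, while genes for making ribosomes fall. The proteasome, which degrades tagged proteins, has its own factor, Rpn4, which binds an element known as PACE, and the genes of ribosome assembly share 2 promoter motifs named PAC and RRPE. In glucose medium, genes of respiration and of the use of other carbon and nitrogen sources are held low.

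The promoters printed here are those of genes named below in which a motif of the stress, proteasome, nitrogen or ribosome assembly genes was found. SRO9 is in none of these lists and is shown because its promoter holds both motifs of ribosome assembly. They are the 300 bases before the start codon in RefSeq's R64 assembly, read on the gene's strand, and they lie at chrV:79978-80277 (minus strand) for CYC7, chrXIII:16677-16976 (minus) for MSC1, chrXIII:477607-477906 (minus) for PGM2, chrXV:255037-255336 (plus) for PRE6, chrXIV:357153-357452 (plus) for MEP2 and chrIII:58679-58978 (minus) for SRO9. Capitals mark the stress response element AGGGG in the first 3, PACE (GGTGGCAAA, here on the other strand) in PRE6, the GATA motif (GATAA, other strand) in MEP2, and PAC (GCGATGAG, other strand) followed by RRPE (AAAAATTTT, on both strands in overlap) in SRO9.
CYC7: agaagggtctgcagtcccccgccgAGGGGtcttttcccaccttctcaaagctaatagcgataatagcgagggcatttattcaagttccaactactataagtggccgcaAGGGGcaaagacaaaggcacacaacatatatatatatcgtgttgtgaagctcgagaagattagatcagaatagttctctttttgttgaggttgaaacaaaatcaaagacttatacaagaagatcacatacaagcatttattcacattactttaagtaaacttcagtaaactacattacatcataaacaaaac
MSC1: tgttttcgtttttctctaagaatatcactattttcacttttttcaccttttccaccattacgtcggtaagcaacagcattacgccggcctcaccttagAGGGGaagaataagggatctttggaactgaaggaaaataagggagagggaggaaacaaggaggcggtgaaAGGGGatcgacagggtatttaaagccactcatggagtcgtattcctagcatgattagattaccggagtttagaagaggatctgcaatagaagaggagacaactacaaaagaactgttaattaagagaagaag
PGM2: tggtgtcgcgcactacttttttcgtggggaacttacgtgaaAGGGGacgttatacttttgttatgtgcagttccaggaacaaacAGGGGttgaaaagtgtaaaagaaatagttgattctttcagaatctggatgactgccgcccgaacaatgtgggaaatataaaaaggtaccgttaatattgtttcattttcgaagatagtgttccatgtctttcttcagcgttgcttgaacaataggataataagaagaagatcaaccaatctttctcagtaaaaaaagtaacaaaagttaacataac
PRE6: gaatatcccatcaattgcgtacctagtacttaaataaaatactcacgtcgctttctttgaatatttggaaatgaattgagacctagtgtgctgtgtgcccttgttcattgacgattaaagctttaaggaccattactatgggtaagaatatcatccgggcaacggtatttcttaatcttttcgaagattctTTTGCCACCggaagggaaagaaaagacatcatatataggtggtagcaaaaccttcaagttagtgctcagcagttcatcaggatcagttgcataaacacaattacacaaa
MEP2: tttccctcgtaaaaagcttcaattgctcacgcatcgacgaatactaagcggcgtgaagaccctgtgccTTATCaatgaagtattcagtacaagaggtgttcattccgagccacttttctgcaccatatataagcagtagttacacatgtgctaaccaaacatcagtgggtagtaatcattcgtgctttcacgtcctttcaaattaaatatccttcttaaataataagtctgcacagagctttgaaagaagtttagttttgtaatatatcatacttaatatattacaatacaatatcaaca
SRO9: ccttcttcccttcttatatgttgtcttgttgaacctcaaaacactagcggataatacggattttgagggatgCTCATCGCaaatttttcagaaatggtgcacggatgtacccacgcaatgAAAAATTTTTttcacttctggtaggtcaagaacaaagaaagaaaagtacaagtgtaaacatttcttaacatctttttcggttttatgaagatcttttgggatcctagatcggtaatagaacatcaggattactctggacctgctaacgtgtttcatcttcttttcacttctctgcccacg

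The stress response element, on either strand, was present in 74 of 130 promoters of genes lower with CdSe/ZnS (56.9%) and in 9 of 67 of genes higher (13.4%), against 1232 of all 5359 nuclear promoters of kept genes (23.0%). Promoters with at least 2 of them made up 22.3% of the lower set and 3.62% of all, and the median difference was -0.41 for genes with such a promoter, -0.15 for genes with any and 0.04 for genes with none. RRPE was found in 29.9% of the promoters of genes higher and 3.85% of those of genes lower, against 8.02% of all, and PAC in 7.46% and 1.54%, against 4.46%. The short GATA motif was in 38 of the 67 promoters of genes higher and 78 of the 130 of genes lower, against 61.0% of all. These shares describe letters in a window: HSP26 and TMA10, both lower, hold no AGGGG there.

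Genes of the common stress program, of glycogen synthesis, of the proteasome and of the respiratory chain were among those lower with CdSe/ZnS than with InP/ZnS, and genes of translation and ribosome assembly among those higher. By the normal test 74 genes were higher (1.25% of all 5901) and 130 were lower (2.20%), together 3.46%. Of these calls 36.3% were higher and 63.7% lower. At an unadjusted p under 0.05, 385 of the 5901 genes were higher and 452 lower, together 14.2%. List counts at that unadjusted threshold below are to be set beside these numbers, not beside the 1.25% and 2.20%. Without centring, which leaves in the 0.43 between the medians of the 2 dots, 20 genes were higher and 776 lower, or 2.51% and 97.5% of the calls. Differences, calls and the list medians given for each dot below are relative to the median gene, which stood at -0.37 over untreated with CdSe/ZnS. A list median above 0 with CdSe/ZnS can therefore still lie below untreated cells. Where a gene is said to lie above or below its control, the FPKM are compared without centring.

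Most of the called genes lay on opposite sides of the median gene with the 2 dots. Genes were called on the difference of these same 2 values, which favours opposite sides, so the counts only describe the called genes. Of the 130 lower genes, 76 were below it with CdSe/ZnS and above it with InP/ZnS, 35 were above with both and 19 were below with both. Their median centred value was -0.65 with CdSe/ZnS, against 0.74 with InP/ZnS. Of the 74 higher genes, 50 were above it with CdSe/ZnS and below it with InP/ZnS, 19 were above with both and 5 below with both, with medians of 0.95 with CdSe/ZnS and -0.28 with InP/ZnS. The scatter of the fold changes shows both sets on either side of the diagonal, which follows from how they were called.

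**Figure D1:**
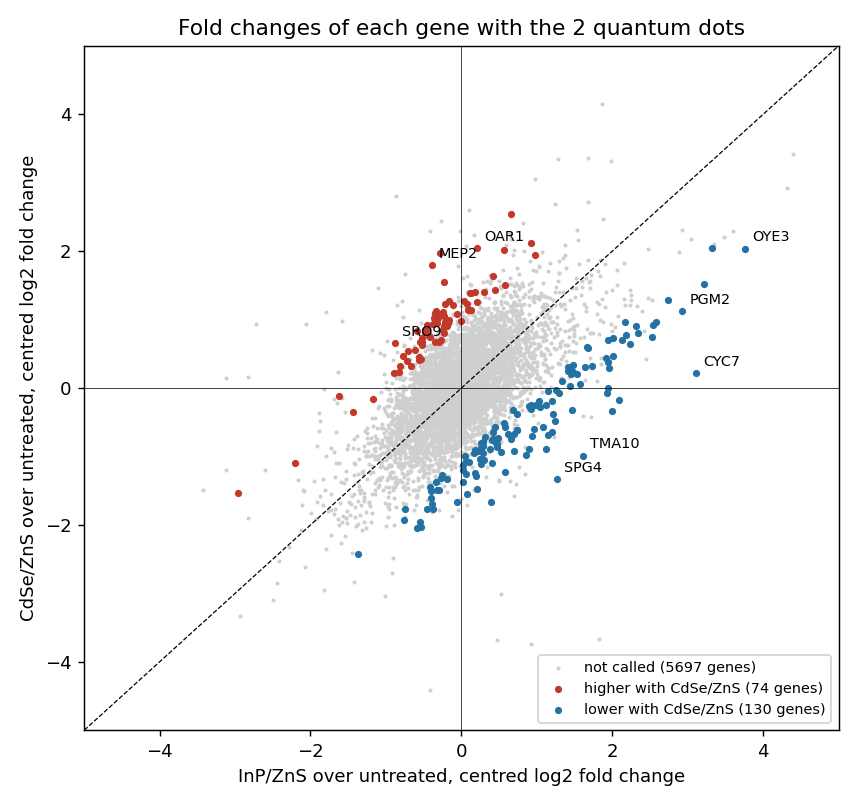
Each point is 1 of 5901 genes, with its centred log2 fold change over untreated with CdSe/ZnS (vertical axis) and with InP/ZnS (horizontal axis). The 74 genes called higher with CdSe/ZnS (red) lie above the dashed line of equal values and the 130 called lower (blue) below it; OLI1, at 8.25 with CdSe/ZnS, lies outside the axes.

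The lowest difference among called genes belonged to CYC7, which encodes the hypoxia- and stress-induced isoform of cytochrome c, on chromosome V (79636 to 79977, R64). It stood at 76.2 FPKM with CdSe/ZnS and 84.4 untreated, against 864 FPKM with InP/ZnS and 96.4 untreated. The level was 0.903 times its control with CdSe/ZnS, against 8.97 times with InP/ZnS. The difference was -2.88 ± 0.42 (q = 1.41e-08), a 7.38-fold lower response. The main aerobic isoform, CYC1, had 76.5 FPKM with CdSe/ZnS and 106 untreated, against 103 with InP/ZnS and 111 untreated, with a difference of 0.07 ± 0.42 that was not called (q = 0.98). The hypoxic form of subunit 5 of cytochrome c oxidase, COX5B, had 245 FPKM with CdSe/ZnS and 601 untreated, against 1193 with InP/ZnS and 708 untreated, and was lower at -1.62 ± 0.33 (q = 0.000205). Its aerobic partner COX5A, named after its value was seen, stood at -0.41 and was not called (q = 0.629). Whether the forms of a pair differ from each other was not tested. Hypoxic genes as a list did not share 1 direction. Of 18 measured, 2 were lower, CYC7 and COX5B, and 1 was higher, HEM13, against 2.20% and 1.25% of all genes. The list median was -0.17, with 10 members below 0 and 8 above.

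TMA10, a small ribosome-associated protein gene on chromosome XII (783127 to 783387), and SPG4, a gene of survival in stationary phase on chromosome XIII (483014 to 483361), came next. TMA10 had 3654 FPKM with CdSe/ZnS and 9357 untreated, against 36565 with InP/ZnS and 11488 untreated, a difference of -2.60 ± 0.35 (q = 1.83e-10). SPG4 had 266 FPKM with CdSe/ZnS and 863 untreated, against 2552 with InP/ZnS and 1018 untreated, a difference of -2.59 ± 0.33 (q = 7.89e-12). Both genes lay below their control with CdSe/ZnS and above it with InP/ZnS, as did all of the 12 lowest genes described here. The median gene was itself below its control with CdSe/ZnS. Relative to it, CYC7 was above with CdSe/ZnS, at a centred value of 0.22, and MSC1 (-3.28e-05) and SIP18 (-0.07) were close to it. SPG1, another stationary-phase gene, had 40.8 FPKM with CdSe/ZnS and 59.1 untreated, against 356 with InP/ZnS and 80.5 untreated (difference -2.25 ± 0.50, q = 0.000979). SIP18, a hydrophilin of desiccation tolerance, had 113 FPKM with CdSe/ZnS and 154 untreated, against 799 with InP/ZnS and 201 untreated (difference -2.01 ± 0.49, q = 0.00398). OM45, a protein of the mitochondrial outer membrane, had 94.99 FPKM with CdSe/ZnS and 191 untreated, against 588 with InP/ZnS and 246 untreated (difference -1.84 ± 0.35, q = 4.3e-05).

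The rest of the 12 lowest were 2 short reading frames without a standard name, a membrane protein and 3 further genes. YNR034W-A had 586 FPKM with CdSe/ZnS and 953 untreated, against 4776 with InP/ZnS and 1145 untreated, a difference of -2.33 ± 0.35. YBR285W had 15.98 FPKM with CdSe/ZnS and 65.2 untreated, against 96.5 with InP/ZnS and 70.8 untreated, a difference of -2.05 ± 0.45. GPX1, a glutathione peroxidase that acts on lipid peroxides, had 14.6 FPKM with CdSe/ZnS and 35.0 untreated, against 78.6 with InP/ZnS and 34.7 untreated, a difference of -2.02 ± 0.48. MSC1, whose promoter is printed above, had 108 FPKM with CdSe/ZnS and 139 untreated, against 673 with InP/ZnS and 168 untreated, a difference of -1.95 ± 0.35. YNL194C, a membrane protein of the cell cortex, and STF2, a stabilising factor of the ATP synthase inhibitor, stood at -1.85 ± 0.32 and -1.84 ± 0.33. The q of these 6 genes ran between 3.38e-08 for YNR034W-A and 0.00246 for GPX1.

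**Figure D2:**
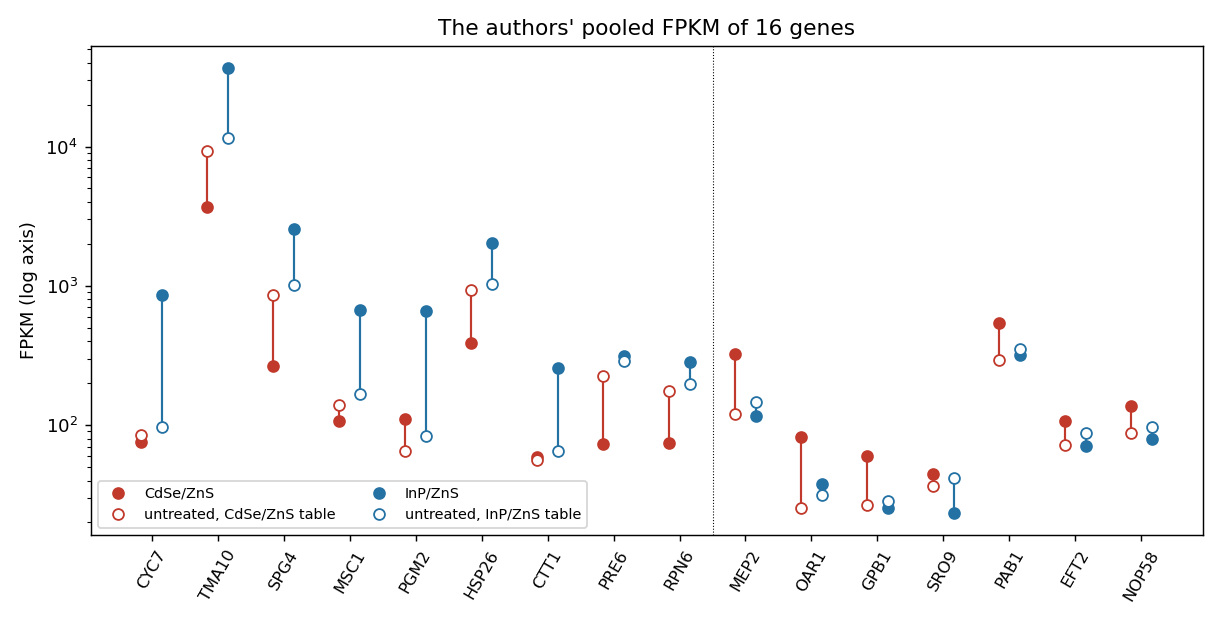
The authors' pooled FPKM (log axis) of 16 named genes, with CdSe/ZnS and its untreated control in red at left and InP/ZnS and its control in blue at right; filled circles are treated and open circles untreated. Left of the dotted line are 9 genes lower with CdSe/ZnS, and right of it 7 genes that were higher, of which MEP2 reached 322 FPKM with CdSe/ZnS.

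Of 51 measured genes of the induced environmental stress response, 22 were lower with CdSe/ZnS and 0 higher, against 2.20% and 1.25% of all genes. At an unadjusted p under 0.05 the counts were 35 lower and 0 higher, against 452 and 385 of all 5901 genes. The list's median difference was -1.04, and 50 of the 51 members had a difference below 0. Its centred median was 0.27 with CdSe/ZnS, against 1.25 with InP/ZnS. AGGGG was in 78.4% of the list's promoters, against 23.0% of all promoters. The list was chosen with results of these data known, so its direction is a description.

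CTT1, the cytosolic catalase, had 59.0 FPKM with CdSe/ZnS and 56.1 untreated, against 256 with InP/ZnS and 65.4 untreated, a difference of -1.47 ± 0.33 (q = 0.00128). HSP26, a small heat shock protein that holds unfolded proteins, had 387 FPKM with CdSe/ZnS and 930 untreated, against 2022 with InP/ZnS and 1039 untreated, a difference of -1.80 ± 0.36 (q = 0.000151). HSP12, a membrane-stabilising stress protein, had 2357 FPKM with CdSe/ZnS and 2018 untreated, against 8460 with InP/ZnS and 2556 untreated, and was called at -1.07 ± 0.34 (q = 0.0485). HSP12 and CTT1 were thus above their controls with both dots and HSP26 with InP/ZnS. HSP30, a plasma membrane stress protein, was lower at -1.19 ± 0.38, and HSP104, the disaggregase that resolves aggregates, had a difference of -0.84 ± 0.41 that was not called (q = 0.326). In all, 3 of 7 small heat shock and disaggregase genes were lower (42.9%, against 2.20% of all genes) and 0 higher. At an unadjusted p under 0.05 the counts were 6 and 0, and the list median was -1.04. With the trend with coding length removed, described below, HSP12 (-0.75) and HSP30 (-1.11) were not called, and 1 of the 7 was lower.

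Larger chaperones were called in 1 case. Of 14 Hsp70 and Hsp110 genes, which fold proteins in the cytosol, 1 was higher (7.14%, against 1.25% of all genes) and 0 lower. At an unadjusted p under 0.05 the counts were 4 higher and 1 lower, against 385 and 452 of all 5901 genes. Their medians were 0.70 with CdSe/ZnS, against 0.87 with InP/ZnS, with a median difference of -0.01. SSA4, a stress-induced Hsp70, had 448 FPKM with CdSe/ZnS and 142 untreated, against 961 with InP/ZnS and 166 untreated, and its difference of -0.44 ± 0.35 was not called (q = 0.642). The called one was SSB2, an Hsp70 of the ribosome that folds new chains, at 325 FPKM with CdSe/ZnS and 303 untreated, against 210 with InP/ZnS and 343 untreated (difference 1.24 ± 0.33, q = 0.0101). Its near-identical copy SSB1, named after its value was seen, stood at 0.94 (q = 0.261), and reads of the pair may have been split between them.

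Enzymes that make glycogen were lower in 5 of 7 cases, and 0 of 4 genes of trehalose synthesis were called. Of 20 genes of trehalose and glycogen, 5 were lower (25%, against 2.20% of all genes) and 0 higher (11 and 0 at an unadjusted p under 0.05). The median difference was -0.72, with medians of 0.65 with CdSe/ZnS and 1.41 with InP/ZnS. All 5 belong to glycogen synthesis, whose 7 genes had a median difference of -1.41. PGM2, the phosphoglucomutase on chromosome XIII (475897 to 477606), had 110 FPKM with CdSe/ZnS and 65.2 untreated, against 663 with InP/ZnS and 83.7 untreated, a difference of -1.80 ± 0.37 (q = 0.000328). GSY1, a glycogen synthase, had 74.2 FPKM with CdSe/ZnS and 33.6 untreated, against 377 with InP/ZnS and 38.8 untreated (difference -1.71 ± 0.37, q = 0.000795). Both were above their controls with each dot, and further above with InP/ZnS. UGP1, which makes UDP-glucose and shares its locus with another entry, stood at -1.41 ± 0.35 (q = 0.00458). The other 2, named after their values were seen, were GLC3, the branching enzyme, at -1.62 ± 0.40, and GSY2, the second glycogen synthase, at -1.27 ± 0.38. The 4 trehalose synthesis genes ran between -0.87 and -0.40, and the 3 trehalose breakdown genes between -0.99 and -0.24.

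Of 35 measured genes of the proteasome and its activator, 6 were lower (17.1%, against 2.20% of all genes) and 0 higher. At an unadjusted p under 0.05 the counts were 22 lower and 0 higher, against 452 and 385 of all 5901 genes. Of the 35 genes, 34 had a difference below 0. The list median was -0.76. Its centred medians, -0.44 with CdSe/ZnS and 0.31 with InP/ZnS, fell on opposite sides of the median gene. RPN6, a lid subunit of the regulatory particle, had 74.97 FPKM with CdSe/ZnS and 176 untreated, against 285 with InP/ZnS and 197 untreated, a difference of -1.34 ± 0.33 (q = 0.00458). PRE6, a subunit of the core ring, had 73.5 FPKM with CdSe/ZnS and 226 untreated, against 313 with InP/ZnS and 287 untreated (difference -1.31 ± 0.31, q = 0.00246). PUP1, a catalytic subunit of the core, had 71.3 FPKM with CdSe/ZnS and 171 untreated, against 257 with InP/ZnS and 189 untreated (difference -1.28 ± 0.30, q = 0.00246). SEM1, PRE9 and PRE7, named after their values were seen, were also lower, at -1.31, -1.12 and -1.02. By subcomplex, the median was -0.82 for 14 genes of the core particle (4 lower), -0.68 for the 6 ATPases (0 lower) and -0.73 for 13 other regulatory subunits (2 lower). PACE was found in 27 of the 35 promoters (77.1%), against 1.29% of all promoters, and genes with it had a median difference of -0.52, against -0.01 for genes without.

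Among nuclear genes of respiration and ATP synthase, calls were lower in 7 of 42 cases (16.7%, against 2.20% of all genes) and higher in 0. At an unadjusted p under 0.05 the counts were 21 lower and 0 higher, against 452 and 385 of all 5901 genes. The median difference was -0.75, with medians of -0.30 with CdSe/ZnS and 0.42 with InP/ZnS. Beside CYC7 and COX5B, COX12, a small subunit of cytochrome c oxidase, had 162 FPKM with CdSe/ZnS and 351 untreated, against 676 with InP/ZnS and 412 untreated, a difference of -1.40 ± 0.40 (q = 0.02). By complex, the median was -1.06 for 9 genes of cytochrome c oxidase (4 lower), -0.78 for 9 of the cytochrome bc1 complex (0 lower), -0.60 for 15 of ATP synthase (2 lower) and -0.49 for 4 of succinate dehydrogenase (0 lower). These genes are short, with a median coding length of 454.5 bp against 1194 bp over all genes. With the trend of the difference with coding length removed, their median was -0.44 and 2 were lower, and COX12 was not called (-1.05).

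Length moved with the contrast as a whole. Across 5363 genes with a coding length, which are not independent replicates, Spearman's rho between length and difference was 0.31. In 10 bins by length the median difference was -0.34 for the shortest genes (90 to 432 bp) and 0.23 for the longest (2706 to 14733 bp). For the shortest genes the median was -0.37 with CdSe/ZnS, against -0.07 with InP/ZnS. Genes called lower had a median length of 691.5 bp and genes called higher 1728 bp. With the trend removed 61 genes were higher and 93 lower, and 43 and 86 of these were the same genes as before. The part of length in these results was not tested. With the trend removed the stress list had 21 lower and a median of -1.0005, and the proteasome had 4 lower and a median of -0.70.

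**Figure D3:**
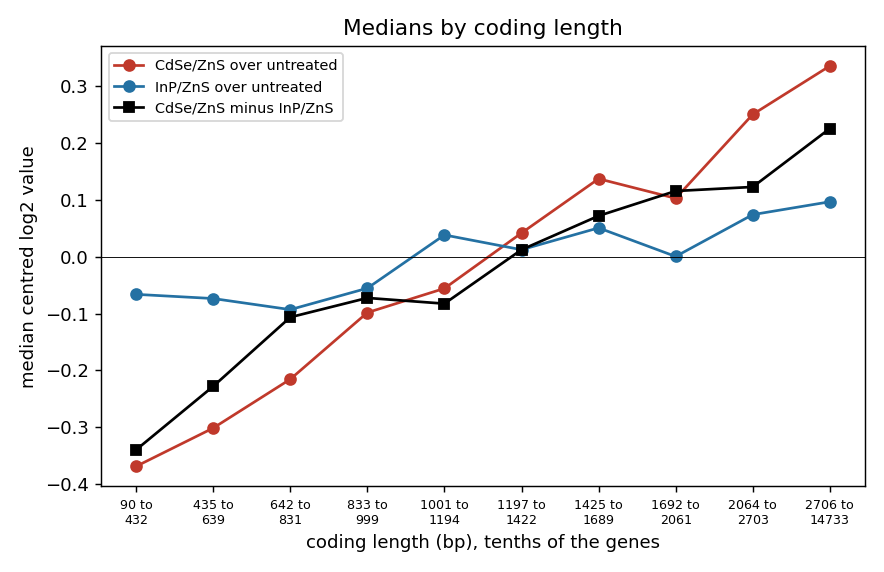
Medians of the centred log2 fold change over untreated with CdSe/ZnS (red) and InP/ZnS (blue), and of the difference between them (black squares), in 10 bins of genes by coding length in bp. The CdSe/ZnS median climbs with length between -0.37 and 0.34, and the InP/ZnS median stays between -0.09 and 0.10.

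Other genes called lower were single members of lists of oxidative defence, carbon use and the cell wall. They were 1 of 21 old yellow enzymes and Yap1 targets and 1 of 22 genes of growth on ethanol and acetate. Also lower were 1 of 13 hexose transporters and sensors and 1 of 44 wall genes, of which 2 were higher. Beside the 2.20% of all genes lower, such single calls are no result about the lists. OYE3, an old yellow enzyme that reduces unsaturated carbonyls, had 35.2 FPKM with CdSe/ZnS and 11.1 untreated, against 179 with InP/ZnS and 12.7 untreated, a difference of -1.72 ± 0.37 (q = 0.000684). ALD4, the mitochondrial aldehyde dehydrogenase, had 130 FPKM with CdSe/ZnS and 103 untreated, against 558 with InP/ZnS and 123 untreated (difference -1.42 ± 0.35, q = 0.00467). HXT6, a high-affinity glucose transporter, had 73.4 FPKM with CdSe/ZnS and 23.0 untreated, against 303 with InP/ZnS and 29.0 untreated (difference -1.28 ± 0.38, q = 0.0286), while HXT7, its near-identical copy, with which it may share reads, stood at -0.87 ± 0.36 and was not called (q = 0.189). All 3 called genes were above their controls with both dots. SPI1, a cell wall protein, was below its control with both, at 524 FPKM with CdSe/ZnS and 2775 untreated, against 2449 with InP/ZnS and 3406 untreated (difference -1.50 ± 0.36, q = 0.00251). FMP16, a mitochondrial protein of stationary phase, had a difference of -1.66 ± 0.33. The list of stationary-phase genes had 6 of 23 lower (26.1%, against 2.20% of all genes) and 0 higher (8 and 1 at an unadjusted p under 0.05). Its median was -0.39, or -0.18 with the length trend removed.

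Single genes of further lists were lower, which beside the 2.20% of all genes is no result about those lists. ATG3, which attaches Atg8 to lipid in autophagy, had a difference of -1.43 ± 0.34, GCY1, a glycerol dehydrogenase that shares its locus with another entry, -1.36 ± 0.35, and MRPS5, of the mitochondrial ribosome, -1.36 ± 0.36. FIT2, a wall mannoprotein that retains siderophore iron, stood at -1.32 ± 0.33, AGA2, a subunit of the a-agglutinin, at -1.37 ± 0.36, GRX1, a glutaredoxin, at -1.19 ± 0.32, and ENT2, an epsin of endocytosis, at -1.04 ± 0.33. Their q ran between 0.00246 for ATG3 and 0.0473 for ENT2. FIT2, AGA2 and GRX1 were not called with the length trend removed, at -1.04, -1.02 and -0.87.

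**Figure D4:**
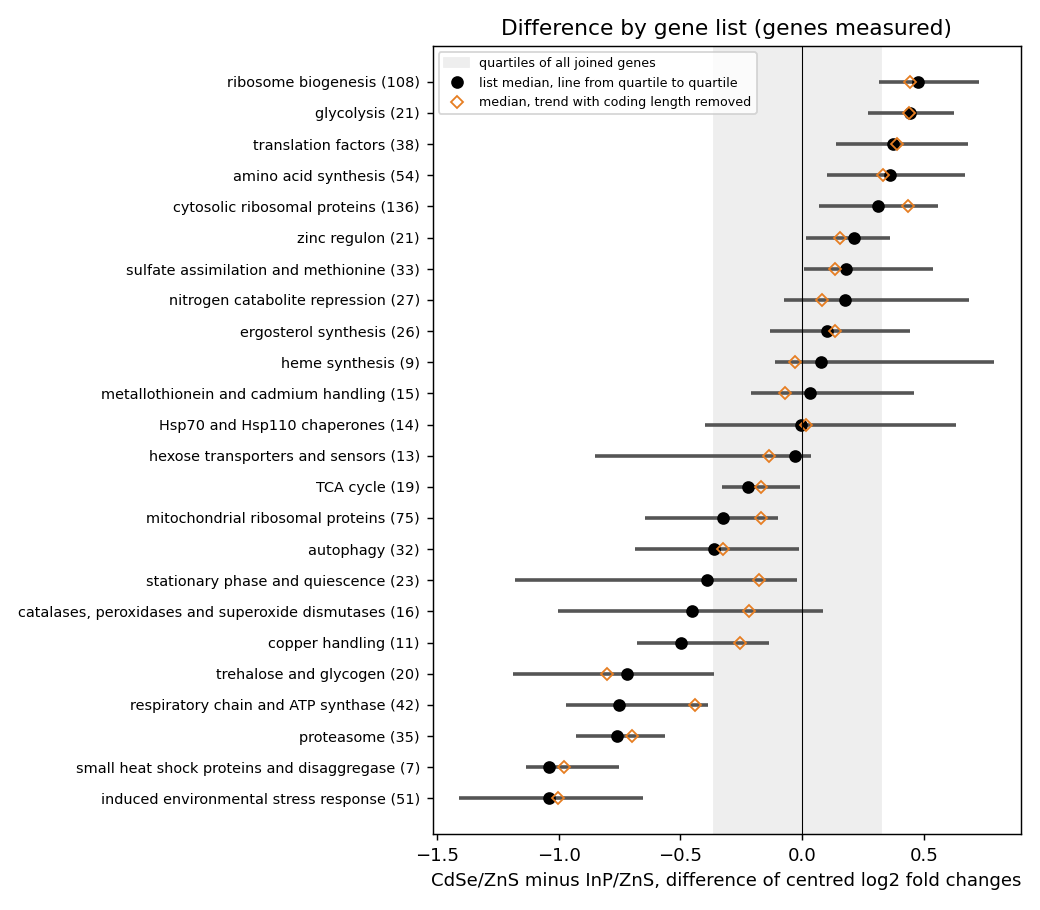
Median difference (CdSe/ZnS minus InP/ZnS, log2 scale) of 24 gene lists, chosen to cover the groups described here, with the number of genes measured, lines from the first to the third quartile, and open diamonds for the median with the trend with coding length removed; the grey band holds the middle quartiles of all genes. The induced stress response and the small heat shock proteins share the lowest median of those drawn, -1.04, and ribosome biogenesis has the highest of them, 0.48; small nucleolar RNAs, with a median of 0.60, are not drawn.

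Among called protein-coding genes of the nucleus the highest difference was that of MEP2, the high-affinity ammonium permease, on chromosome XIV (357453 to 358952). It had 322 FPKM with CdSe/ZnS and 120 untreated, against 117 with InP/ZnS and 147 untreated, a difference of 2.19 ± 0.33 (q = 2.49e-08), or a 4.56-fold higher response. MEP2 was above its control with CdSe/ZnS and below it with InP/ZnS. MEP2 belongs to the genes under nitrogen catabolite repression, whose GATA motif was in 74.1% of the promoters of that list. Of its 27 measured genes 2 were higher (7.41%, against 1.25% of all genes) and 0 lower (8 and 1 at an unadjusted p under 0.05), with a median of 0.18. The second was CAR2, an arginine-degrading aminotransferase that shares its locus with another entry, at 0.97 ± 0.31 (q = 0.0485), which was not called with the length trend removed (0.96).

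OAR1, an enzyme of mitochondrial fatty acid synthesis, had 81.7 FPKM with CdSe/ZnS and 25.5 untreated, against 37.8 with InP/ZnS and 31.5 untreated, a difference of 1.84 ± 0.37 (q = 0.000187). GPB1, a kelch protein that restrains protein kinase A signalling, had 60.2 FPKM with CdSe/ZnS and 26.6 untreated, against 25.4 with InP/ZnS and 28.7 untreated (difference 1.78 ± 0.33, q = 2.52e-05). SRO9, an RNA-binding protein of the cytoplasm, had 44.7 FPKM with CdSe/ZnS and 36.7 untreated, against 23.5 with InP/ZnS and 41.4 untreated (difference 1.53 ± 0.30, q = 0.000103). GPB1 and SRO9 were above their control with CdSe/ZnS and below it with InP/ZnS. Transporters were also among the highest. PTR2, which imports small peptides, had 17.7 FPKM with CdSe/ZnS and 24.7 untreated, against 11.0 with InP/ZnS and 32.6 untreated (difference 1.51 ± 0.36). FUI1, the uridine permease, had 102 FPKM with CdSe/ZnS and 73.8 untreated, against 58.1 with InP/ZnS and 83.8 untreated (difference 1.42 ± 0.32). HCM1, a forkhead factor of S phase, stood at 1.47 ± 0.34, PCL5, a cyclin that directs the turnover of Gcn4, at 1.43 ± 0.42, YBR238C at 1.38 ± 0.36 and ECM16, a helicase of ribosomal RNA processing, at 1.35 ± 0.32. Of these genes PCL5 had the highest q, at 0.0275.

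Translation factors were higher in 7 of 38 cases (18.4%, against 1.25% of all genes) and lower in 0 (10 and 0 at an unadjusted p under 0.05). Their median difference was 0.38, with centred medians of 0.20 with CdSe/ZnS and -0.29 with InP/ZnS. PAB1, the poly(A)-binding protein, had 537 FPKM with CdSe/ZnS and 296 untreated, against 316 with InP/ZnS and 352 untreated, a difference of 1.45 ± 0.34 (q = 0.00255). FUN12, the initiation factor that joins the ribosomal subunits, had 67.1 FPKM with CdSe/ZnS and 41.5 untreated, against 41.2 with InP/ZnS and 48.1 untreated (difference 1.34 ± 0.30, q = 0.000979). EFT2, elongation factor 2, had 107 FPKM with CdSe/ZnS and 72.5 untreated, against 70.6 with InP/ZnS and 87.9 untreated (difference 1.31 ± 0.30, q = 0.0022); it has an identical protein copy, EFT1, with which it may share reads. All 3 were above their control with CdSe/ZnS and below it with InP/ZnS. By kind, 4 of 11 elongation factors were higher, with a median of 0.54, and 2 of 24 initiation factors, with a median of 0.37. The share over all genes was 1.25%. The 4 include both EFT1 and EFT2, so they may not be separate calls, and the kinds were not compared by a test.

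Ribosome biogenesis genes were higher in 6 of 108 cases (5.56%, against 1.25% of all genes) and lower in 0. At an unadjusted p under 0.05 the counts were 36 higher and 0 lower, against 385 and 452 of all 5901 genes. Of the 108 genes, 103 had a difference above 0. Their median difference was 0.48, with centred medians of 0.08 with CdSe/ZnS and -0.42 with InP/ZnS. NOP58, a core protein of small nucleolar ribonucleoproteins that shares its locus with another entry, had 138 FPKM with CdSe/ZnS and 87.3 untreated, against 79.2 with InP/ZnS and 97.4 untreated, a difference of 1.38 ± 0.34 (q = 0.00458). NSR1, yeast nucleolin, which also shares its locus, was below its control with both dots, at 177 FPKM with CdSe/ZnS and 254 untreated, against 136 with InP/ZnS and 294 untreated (difference 1.01 ± 0.28, q = 0.0137). RRPE was in 71.3% and PAC in 52.8% of the 108 promoters, against 8.02% and 4.46% of all promoters. RPA190, the largest subunit of RNA polymerase I, which transcribes ribosomal RNA, stood at 1.14 ± 0.34 (q = 0.0288). RPA190 was the 1 gene called of 21 subunits of polymerases I and III (4.76%, against 1.25% of all genes higher). It was not called with the length trend removed (0.87).

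The list median of cytosolic ribosomal protein genes was below the median gene with both dots, at -0.47 with CdSe/ZnS and -0.78 with InP/ZnS. Members ran between -1.49 and 0.59 with CdSe/ZnS, and between -1.44 and -0.27 with InP/ZnS. The median difference was 0.31, or 0.44 with the length trend removed. Of 136 genes, 3 were higher (2.21%, against 1.25% of all genes) and 0 lower. That count is near the share of all genes and is no result about the list. At an unadjusted p under 0.05 the counts were 18 higher and 0 lower, against 385 and 452 of all 5901 genes. RPL4B had 340 FPKM with CdSe/ZnS and 335 untreated, against 276 with InP/ZnS and 438 untreated, a difference of 1.12 ± 0.30 (q = 0.0129). RPL8A stood at 1.09 ± 0.31 (q = 0.0188) and RPL1B at 0.96 ± 0.31 (q = 0.0494). All 3 encode proteins of the large subunit and each has a near-identical copy with which it may share reads. RPL1B was not called under 8 of 15 alternatives, among them no floor, 1 FPKM added to each value and the median error.

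**Figure D5:**
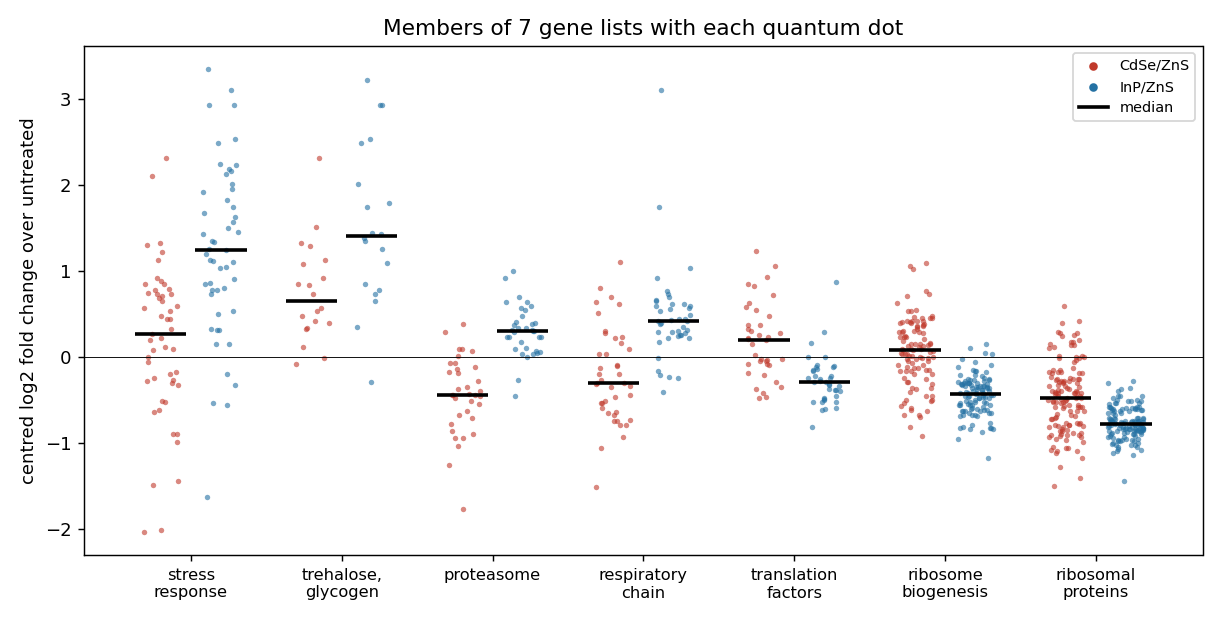
Centred log2 fold change over untreated of each measured member of 7 gene lists, with CdSe/ZnS (red, left) and InP/ZnS (blue, right); black bars are medians. With CdSe/ZnS and InP/ZnS in turn, the median is 0.27 and 1.25 for the stress response, -0.44 and 0.31 for the proteasome, and 0.08 and -0.42 for ribosome biogenesis.

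Enzymes of metabolism with single calls on the higher side were spread over many pathways. A single call in a list, beside the 1.25% of all genes, is no result about that list. HEM13 and HEM1, of heme synthesis, had differences of 0.96 ± 0.27 (q = 0.0182) and 1.04 ± 0.32 (q = 0.0402). They were the 2 called of 9 genes of that list (22.2%, against 1.25% of all genes higher), with 0 lower. HEM1 (0.95) was not called with the length trend removed, nor were NCP1 (0.94), IDP1 (1.18) and MET10 (1.04), described next. HEM13 was above its control with both dots, at 149 FPKM with CdSe/ZnS and 50.3 untreated, against 123 with InP/ZnS and 60.1 untreated. NCP1, the reductase that serves cytochromes P450 of sterol synthesis, stood at 1.03 ± 0.31, IDP1, the mitochondrial NADP-dependent isocitrate dehydrogenase, at 1.19 ± 0.37, and SHM1, the mitochondrial serine hydroxymethyltransferase, at 1.23 ± 0.34. IDP1 had 3560 FPKM with CdSe/ZnS and 1062 untreated, against 2475 with InP/ZnS and 1249 untreated. ENO2, an enolase of glycolysis, was above its control with CdSe/ZnS and below it with InP/ZnS, at 2544 FPKM with CdSe/ZnS and 1939 untreated, against 1935 with InP/ZnS and 2498 untreated (difference 1.19 ± 0.34, q = 0.0184). MET10, a subunit of sulfite reductase, had 690 FPKM with CdSe/ZnS and 287 untreated, against 458 with InP/ZnS and 330 untreated (difference 1.22 ± 0.38, q = 0.0468).

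Higher were 1 of 19 genes of the vacuolar proton pump (5.26%) and 1 of 24 phosphate genes (4.17%), against 1.25% of all genes. Of 44 cell wall genes 2 were higher (4.55%) and 1 lower. At these list sizes such counts are near the shares of all genes and are no result about the lists. VMA2, a subunit of the vacuolar proton pump, had a difference of 1.27 ± 0.35 (q = 0.0128). FKS1, a glucan synthase, and DSE1, a gene of daughter-cell separation, stood at 1.26 ± 0.34 (q = 0.0134) and 1.24 ± 0.33 (q = 0.0116). PHO89, a sodium-driven phosphate transporter, was below its control with both dots, at 12.6 FPKM with CdSe/ZnS and 34.6 untreated, against 9.33 with InP/ZnS and 41.5 untreated (difference 1.12 ± 0.35, q = 0.0395). FKS1 (0.99) and PHO89 (1.01) were not called with the length trend removed.

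Few or none of the genes in lists of metal handling were called, which at these list sizes is near the 3.46% called over all genes and is no result about the lists. Of 15 measured genes of metallothioneins and cadmium handling, 0 were called by the normal test, 1 was higher and 0 lower at an unadjusted p under 0.05, and likewise 1 and 0 were called with an error that allows for the shared control. Their median difference was 0.03, with centred medians of 0.40 with CdSe/ZnS and 0.25 with InP/ZnS. CRS5, a metallothionein, had 314 FPKM with CdSe/ZnS and 1110 untreated, against 746 with InP/ZnS and 1388 untreated, with a difference of -0.50 ± 0.39 (q = 0.63). YCF1, the vacuolar pump for glutathione conjugates of cadmium, had 52.3 FPKM with CdSe/ZnS and 41.4 untreated, against 67.0 with InP/ZnS and 45.3 untreated (difference 0.20 ± 0.34, q = 0.893), and turned below 0 without centring or without the length trend. GSH1, which starts glutathione synthesis, stood at 0.55 ± 0.33 (q = 0.476). The metallothionein copies CUP1-1 and CUP1-2 were listed at 0 in all 4 values and had not been tested.

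The zinc list had 0 called of 21 by the normal test, and 3 higher and 0 lower at an unadjusted p under 0.05, with a median of 0.21. ZRT1, the high-affinity zinc importer, was below its control with both dots, at 34.9 FPKM with CdSe/ZnS and 107 untreated, against 64.7 with InP/ZnS and 120 untreated, and its difference of -0.30 ± 0.32 was not called (q = 0.781). ZRC1, which loads zinc into the vacuole, stood at 0.50 ± 0.33 (q = 0.526). In the iron list 1 of 30 genes was higher and 1, FIT2, lower. The higher one was FET3, the ferroxidase of iron uptake, with 226 FPKM with CdSe/ZnS and 123 untreated, against 182 with InP/ZnS and 151 untreated (difference 1.04 ± 0.32, q = 0.0346), which was not called with the length trend removed (0.95). Of 11 measured genes of copper handling 0 were called, and 0 were higher and 2 lower at an unadjusted p under 0.05. Their median was -0.50, or -0.26 with the length trend removed, and 9 of the 11 had a difference below 0.

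Further stress and carbon genes, named whatever their values, were not called. TIR1, an anaerobic cell wall mannoprotein, had 63.2 FPKM with CdSe/ZnS and 7.65 untreated, against 183 with InP/ZnS and 8.34 untreated (difference -0.98 ± 0.52, q = 0.384). SPS100, a spore wall protein, had 15.9 FPKM with CdSe/ZnS and 207 untreated, against 32.7 with InP/ZnS and 241 untreated (difference -0.39 ± 0.35, q = 0.694). HXK1, a hexokinase that shares its locus with another entry, had 834 FPKM with CdSe/ZnS and 250 untreated, against 3189 with InP/ZnS and 301 untreated (difference -1.24 ± 0.44, q = 0.0996). CIT1, citrate synthase, stood at -0.89 ± 0.35 (q = 0.156), TRX2, a thioredoxin, at -0.71 ± 0.32 (q = 0.253) and SOD1, the copper-zinc superoxide dismutase, at -0.16 ± 0.34 (q = 0.924).

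Calls among small nucleolar RNAs were on the higher side, as was that of OLI1, an RNA of the mitochondrial genome. Poly(A) selection is meant to leave such RNAs out, and its part in these values was not tested. Of 44 small nucleolar RNAs 3 were higher (6.82%, against 1.25% of all genes) and 0 lower (6 and 0 at an unadjusted p under 0.05). Their median was 0.60, with a range between -1.84 and 2.02. The first, snR83, had 149 FPKM with CdSe/ZnS and 33.0 untreated, against 66.1 with InP/ZnS and 40.3 untreated (difference 1.89 ± 0.59). The second, snR64, had 185 FPKM with CdSe/ZnS and 693 untreated, against 104 with InP/ZnS and 772 untreated (difference 1.42 ± 0.04). The third, snR13, had 173 FPKM with CdSe/ZnS and 78.8 untreated, against 78.8 with InP/ZnS and 50.5 untreated (difference 0.92 ± 0.15). Levels of snR83 and snR13 were above their controls with both dots, and that of snR64 was below with both. The errors of snR64 and snR13 are far under the median error of 0.343, and snR13 was not called with that median error for all genes or with an absolute difference of at least 1. Named after their values were seen, LSR1, the U2 spliceosomal RNA, was higher at 2.26 (q = 3.62e-07), SCR1, the RNA of the signal recognition particle, at 1.34 and TLC1, the telomerase RNA, at 1.33. OLI1, the mitochondrial gene of ATP synthase subunit c, had 1044 FPKM with CdSe/ZnS and 4.44 untreated, against 10.6 with InP/ZnS and 5.99995 untreated. Its difference of 7.49 ± 1.68 (q = 0.00125) carried an error several times the usual one.

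The libraries were checked against markers of other cell states and against their strain label. All 7 markers of MATa cells were present, with summed levels of 25709 FPKM with CdSe/ZnS and 41087 untreated, against 47799 with InP/ZnS and 51869 untreated, while the 4 markers of MATalpha cells summed to 68.4 FPKM with CdSe/ZnS and 78.9 untreated, against 96.4 with InP/ZnS and 92.7 untreated. URA3, looked up after the data were seen, was at 0 in both values of the CdSe/ZnS table and in the InP/ZnS table at 0.472 FPKM with InP/ZnS and 0.103 untreated. The reference isolate of S288C is known as a MATalpha strain with an intact URA3, so these levels go against the label in all groups alike. The 14 meiotic markers summed to 83.8 FPKM with CdSe/ZnS and 91.0 untreated, against 104 with InP/ZnS and 102 untreated. In the same order, the 10 haploid markers summed to 498 and 627 FPKM, against 845 and 727. The 5 respiring markers summed to 1288 and 1554, against 2650 and 1808. The 5 stationary markers summed to 5913 and 6252, against 12414 and 7343. SNZ1 alone held 5477 and 4969 of these, against 8674 and 5802. It was above its control with both dots, while SPS100 was below with both. The untreated values of the CdSe/ZnS table were 0.876 times those of the InP/ZnS table at the median, with a standard deviation of 0.137 on the log2 scale around it.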

How the data were processed

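Poly(A) RNA of 9 libraries, 3 per condition, was sequenced with a stranded kit and 15 cycles of amplification, per the labels' protocols. The submitters' processing notes name TopHat and Cuffdiff. Their versions, the build and the strand setting were not given in the sources used here, which leaves overlapping and antisense genes uncertain. Per the deposited text sheets, bases below a quality of 20 and 12 bases at the 5′ end were trimmed and reads under 80 bp dropped. Each table has Cuffdiff's layout, per the file headers, with 1 FPKM for each gene and condition that the authors pooled over libraries. Beside it stands the deposited log2 ratio of treated to untreated. A deposited test score, Cuffdiff's statistic, accompanies each ratio. The authors' deposited p-value and q-value are not printed here. Which column was treated was read off the authors' lists of higher and lower genes, whose entries all had the matching sign.

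Fold changes were recomputed from FPKM without a pseudocount and differed from the deposited ones by at most 4.18e-05. The standard error per table is the log2 fold change over the score. Differences were tested with Python 3.11.15, NumPy 2.4.6, pandas 2.3.3 and SciPy 1.17.1 by a normal test with Benjamini-Hochberg adjustment over 5901 genes. How often this procedure calls a gene wrongly in these tables, which share their untreated libraries, was not tested. Each table was normalized separately, so levels were compared within a table; the ratio of untreated values between the tables, and an alternative that takes the direct ratio of treated FPKM, cross them. The length trend is the interpolated median of 20 length bins. Coordinates, converted to start from 1, matched RefSeq R64 in 5194 of 5209 entries compared (99.7%), and 90.9% of genes had a coding length there. Entries that share a locus (17.8%) are marked where named.

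The text names the 12 largest called differences per direction among protein-coding genes alone at their locus with all 4 values at least 1, up to 3 called genes per list by smallest p, and a set list of metal, stress and carbon genes. Members, lists and tests were chosen with earlier results of these data known. Lists are described by counts and medians and were not tested.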

Additional observations from a re-analysis of the deposited data

Results flagged for a closer look

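Of the mitochondrial genome, 5 RNAs lay outside the contrast because they had not been tested in the InP/ZnS table, and in the CdSe/ZnS table they stood at 10 FPKM or more with CdSe/ZnS and more than 10 times above untreated cells. COX1, a subunit of cytochrome c oxidase, had 15.7 FPKM with CdSe/ZnS and 0.0849 untreated, against 0.243 with InP/ZnS and 0.252 untreated. AI1, which lies in a COX1 intron, had 61.6 FPKM with CdSe/ZnS and 0.186 untreated, against 0.0618 with InP/ZnS and 0.164 untreated. AI2, in another intron of COX1, had 31.0 FPKM with CdSe/ZnS and 0.130 untreated, against 0.0165 with InP/ZnS and 0.181 untreated. These 3 share 1 locus in the tables, so reads may have been split between them. The large ribosomal RNA, 21S_rRNA, had 643 FPKM with CdSe/ZnS and 1.80 untreated, against 0.911 with InP/ZnS and 1.72 untreated. The small one, 15S_rRNA, had 361 FPKM with CdSe/ZnS and 0.339 untreated, against 0.474 with InP/ZnS and 0.266 untreated. No value per library was used here, so whether 1 library or all 3 carried this RNA was not tested, nor was the difference between the dots for these 5.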

How the results depend on the processing

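The counts of 74 higher and 130 lower genes were recomputed under 13 alternatives, and under 2 added after the data were seen. Without centring they were 20 and 776, with q under 0.01 they were 27 and 70, and with the median error for all genes 193 and 259. With an equal part of each variance taken as the shared control, an added alternative, they were 422 and 496. Under the other 11 alternatives, among them other floors, 1 FPKM added, an absolute difference of at least 1, trends with length or level removed, entries alone at their locus, the direct ratio of treated values and nuclear coding genes only, the higher count ran between 59 and 91 and the lower count between 93 and 131. Of 88 named genes, 73 were called. In every alternative that gave them a value 41 of these kept the call, and 0 of the 73 reversed. The calls lost most often were those of CAR2 (9 of 14 alternatives), RPL1B (8 of 15), MET10 (7 of 15), IDP1 (6 of 15) and PHO89 (6 of 13). Among named genes that were not called, CYC1 turned to -0.36 and YCF1 to -0.23 without centring, and SOD1 to 0.12 and YCF1 to -0.0722 with the length trend removed. In each case the cause was not tested. No paired analysis was possible because no value per library was used here, each table giving 1 pooled value per condition, and for the same reason no replicate could be left out. The depth is unknown.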

Other observations

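Some gene groups are not described above; their counts of calls are near the 1.25% higher and 2.20% lower of all genes and are no result about the groups. Of 54 genes of amino acid synthesis 0 were called by the normal test (8 higher and 0 lower at an unadjusted p under 0.05), with a median difference of 0.36. Their centred median was 0.38 with CdSe/ZnS, against 0.07 with InP/ZnS. The 10 arginine synthesis genes had a median of 0.47 and 0 called (3 higher and 0 lower at an unadjusted p under 0.05), and the 21 glycolytic genes a median of 0.45, with 1 higher, ENO2. On the other side, 75 genes of the mitochondrial ribosome had a median of -0.32, or -0.17 with the length trend removed, and 1 lower, MRPS5. Their centred median was -0.49 with CdSe/ZnS, against -0.13 with InP/ZnS. The 11 core histone genes, whose median coding length is 399 bp, had a median of -0.39, or -0.18 with the length trend removed, and 0 called (0 higher and 3 lower at an unadjusted p under 0.05). For 32 genes of folding in the endoplasmic reticulum the median was 0.06, with 0 called (1 higher and 0 lower at an unadjusted p under 0.05). Across the 16 nuclear chromosomes the median difference lay between -0.11 and 0.13.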
